A study of Homo sapiens with 6 samples.

Results

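The BCL2 family genes described here are 10 genes that hold cells back from, or push them into, mitochondrial cell death. They were BCL2, BCL2L1 and MCL1 on the survival side and BAK1, BCL2L11, BID, BAD, BIK, PMAIP1 and BMF on the death side. A gene was represented by a probe set annotated with exactly 1 gene symbol, and 9 of the 10 genes had one, out of 13139 genes so represented on the array. MCL1 had no probe set of that kind and was not analysed here, which leaves 2 anti-apoptotic and 7 pro-apoptotic genes. Each of the 9 had 1 such probe set, so that no choice between probe sets was needed.

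The samples were BRCA2 knockout HCT116 cells, in which both alleles of BRCA2 had been targeted one after the other by homologous recombination, and wild-type HCT116 cells. HCT116 is a human colon carcinoma line, BRCA2 is a mediator of homologous recombination, and both genotypes grew in McCoy's 5A medium with serum and no further treatment named. Each genotype was represented by 3 arrays that the labels call technical replicates, so the p-values measure the spread between arrays, which may be technical, and not between independent cultures. How many knockout clones gave RNA is not stated in the labels, and loss of BRCA2 cannot be told apart from any other difference between the lines. BRCA2 had 0 probe sets with its symbol alone and could not serve as a check of the genotype labels.

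Proteins of the BCL2 family meet at the outer membrane of the mitochondrion. BAK1 and its relative BAX can form pores there that release cytochrome c, and the guardians BCL2, BCL2L1 (BCL-XL) and MCL1 hold them in check. The BH3-only proteins sense damage or stress and either activate the pore formers directly, as BCL2L11 (BIM) and BID can, or occupy the guardians, as BAD, BIK, PMAIP1 (NOXA) and BMF do. In colon carcinoma cells BCL-XL is known as a major survival protein.

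All values are log2 probe set values as deposited, on which a difference of 1 is a doubling, and each difference is the knockout mean less the wild-type mean, given with its standard error (SE) from the limma fit over all 19458 probe sets. A call needed a Benjamini-Hochberg adjusted p under 0.05. Array medians lay between 7.36 and 7.80, and the highest of each genotype were those of knockout array 2 and wild-type array 1. These arrays had a correlation of 0.924 across probe sets, against 0.876 to 0.902 among the knockout arrays and 0.896 to 0.925 among the wild-type arrays. Results are therefore also given for that pair alone and for the other 4 arrays. The lowest value of the 9 genes on any array was 6.17, and 0 of their values were under 4, the floor tried as an alternative. The number of arrays limits the precision.

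None of the 9 genes passed the test over all probe sets, in which 0.57% were called. The gene for the death activator BIM stood highest in the knockout, followed by the genes for BCL2 itself and for NOXA, and the gene for BCL-XL was slightly lower. At an unadjusted p under 0.05 in limma there were 3 of the 9, namely BCL2L11, BCL2 and PMAIP1, all of them higher, where 12.2% of all probe sets reached that level and 6.92% did so as higher. Knockout and wild-type arrays were fully separated, without overlap, for 5 of the 9 genes, or 55.6%. The share was 19.7% of all probe sets and 21.2% of all genes with 1 symbol. Of the 5 separated genes, 4 were higher in the knockout, against 12% of all probe sets, and 1 was lower, against 7.7%. The 9 genes were chosen with earlier results of these data known, so these shares are descriptions and no test of the set.

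**Figure D1:**
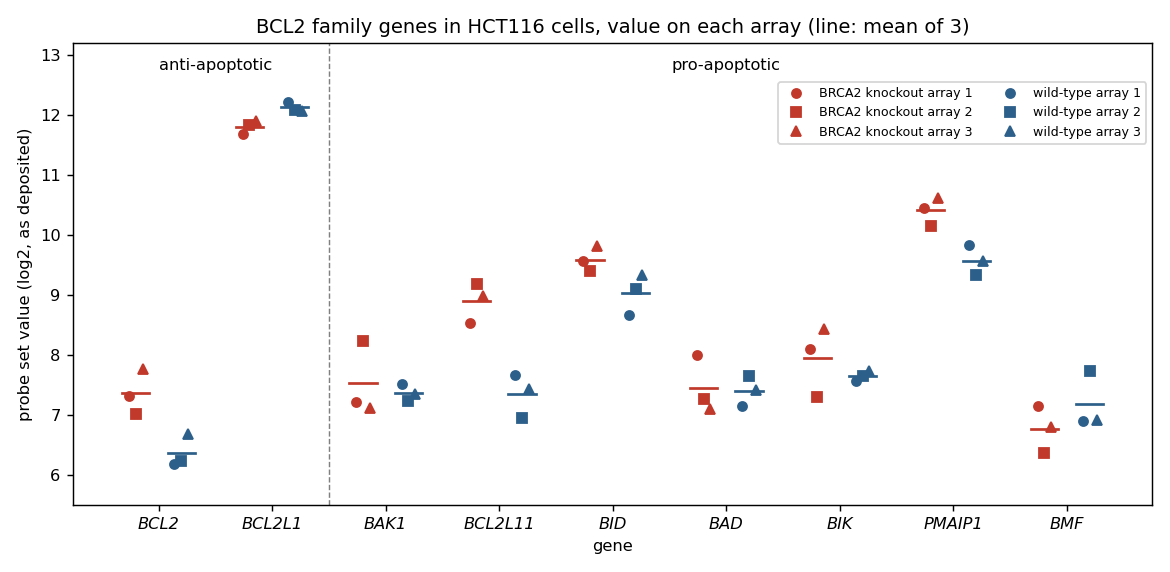
Log2 probe set values of the 9 measured genes on each of the 6 arrays, knockout in red on the left of each gene and wild type in blue on the right, with lines at the means of 3 arrays. The knockout arrays lie above all wild-type arrays for BCL2, BCL2L11, BID and PMAIP1 and below them for BCL2L1. Heights of different genes are not comparable, since each probe set has its own response.

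BCL2, the founding guardian of the family, gave 7.31, 7.01 and 7.76 on knockout arrays 1, 2 and 3, against 6.17, 6.22 and 6.68 on wild-type arrays 1, 2 and 3. Every knockout array was above every wild-type array, with a gap of 0.32 between the nearest arrays. The means were 7.36 ± 0.38 in knockout and 6.36 ± 0.28 in wild type (SD, n = 3 arrays each), and the difference of 1.00 ± 0.31 (SE, 95% interval 0.28 to 1.72) had an adjusted p of 0.255 in limma. The difference was 0.84 between the arrays of highest median and 1.08 over the other 4 arrays.

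BCL2L1, which encodes BCL-XL and through splicing also a shorter death-promoting form, gave 11.68, 11.84 and 11.91 on the knockout arrays, against 12.22, 12.09 and 12.07 on the wild-type arrays. The genotypes were separated here as well, in the opposite direction, but by a gap of 0.16. The means were 11.81 ± 0.12 in knockout and 12.13 ± 0.08 in wild type (SD, n = 3 arrays each). The difference was -0.32 ± 0.24 (95% interval -0.88 to 0.24, adjusted p = 0.632 in limma), so that its interval includes 0, and a whole-transcript value does not separate the splice forms. The array values themselves were tight, and the SE of the fit, which borrows the spread of other probe sets, was larger than their SD. The difference was -0.38 in the pair of highest median and -0.29 over the other arrays.

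The measured guardians thus had differences of opposite sign. The change in BCL2 minus the change in BCL2L1 was 1.32 on the log2 scale. This difference between the 2 genes was not tested.

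The pore former BAK1 gave 7.22, 8.23 and 7.12 on the knockout arrays, against 7.52, 7.23 and 7.34 on the wild-type arrays. Knockout array 2 was the highest of the 6, and the other knockout arrays were the lowest. The difference of 0.16 ± 0.36 (95% interval -0.68 to 1.00, adjusted p = 0.881 in limma) therefore rested on that array. It was 0.71 in the pair of highest median, -0.11 over the other 4 arrays and -0.19 without knockout array 2.

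Among the activators, BCL2L11 stood apart most. It encodes BIM, which binds every guardian and can engage BAX and BAK directly. Its values were 8.54, 9.19 and 8.98 on the knockout arrays, against 7.67, 6.94 and 7.43 on the wild-type arrays. No knockout array came within 0.87 of a wild-type array, the widest gap among the 9 genes. The means were 8.90 ± 0.33 in knockout and 7.35 ± 0.37 in wild type (SD, n = 3 arrays each), a difference of 1.56 ± 0.31, or 2.94-fold, with a 95% interval of 0.82 to 2.29. The adjusted p was 0.110 in limma, and by p the probe set ranked 271 of 19458, within the first 1.39%. The difference was 1.52 in the pair of highest median and 1.57 over the other arrays. It passed the threshold in limma with the dimmest 30% of probe sets left out (adjusted p = 0.0412), with a trend of variance on level (0.0189) and with array weights (0.0279). Over all 16 alternatives the difference lay between 1.35 and 1.74 and the adjusted p between 0.0189 and 0.593.

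BID, which links death receptors to mitochondria once caspase-8 has cleaved it, gave 9.56, 9.40 and 9.81 on the knockout arrays, against 8.66, 9.10 and 9.33 on the wild-type arrays. The genotypes did not overlap, but the nearest arrays were 0.07 apart, less than the SD within either genotype. The means were 9.59 ± 0.20 in knockout and 9.03 ± 0.34 in wild type (SD, n = 3 arrays each). The difference was 0.56 ± 0.29 (95% interval -0.11 to 1.23, adjusted p = 0.494 in limma).

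PMAIP1 encodes NOXA, a p53-inducible protein that chiefly binds MCL1 and hastens its breakdown. It gave 10.46, 10.15 and 10.62 on the knockout arrays, against 9.83, 9.33 and 9.56 on the wild-type arrays. All knockout arrays were above all wild-type arrays, by at least 0.33. The means were 10.41 ± 0.24 in knockout and 9.57 ± 0.25 in wild type (SD, n = 3 arrays each), a difference of 0.84 ± 0.27 (95% interval 0.20 to 1.48, adjusted p = 0.283 in limma). Its size differed between the sets of arrays, at 0.33 in the pair of highest median and 1.10 over the other 4 arrays. The lowest adjusted p over the alternatives was 0.0586, with array weights.

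The remaining sensitizers overlapped between genotypes. BAD, whose binding to BCL2 and BCL-XL is blocked by growth-factor-dependent phosphorylation, gave 7.99, 7.27 and 7.09 on the knockout arrays, against 7.14, 7.65 and 7.41 on the wild-type arrays. The highest and the lowest of the 6 values were both on knockout arrays, and the difference was 0.05 ± 0.33 (95% interval -0.72 to 0.82). Without knockout array 1 it was -0.22, and without wild-type array 1 it was -0.08.

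BIK, a BH3-only protein found mainly at the endoplasmic reticulum, gave 8.10, 7.30 and 8.43 on the knockout arrays, against 7.56, 7.65 and 7.73 on the wild-type arrays. Knockout array 2 was the lowest of the 6 and the other knockout arrays the highest. The difference of 0.29 ± 0.34 (95% interval -0.51 to 1.10) became 0.62 without knockout array 2. It was -0.26 in the pair of highest median and 0.57 over the other 4 arrays.

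BMF, which is held on the cytoskeleton and acts when cells detach, gave 7.14, 6.36 and 6.80 on the knockout arrays, against 6.89, 7.73 and 6.92 on the wild-type arrays. It was the only pro-apoptotic gene of the 7 with a negative difference, -0.42 ± 0.35 (95% interval -1.24 to 0.41). Its highest value was on wild-type array 2, and its lowest on knockout array 2. The adjusted p in limma was 0.960 for BAD, 0.766 for BIK and 0.677 for BMF.

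**Figure D2:**
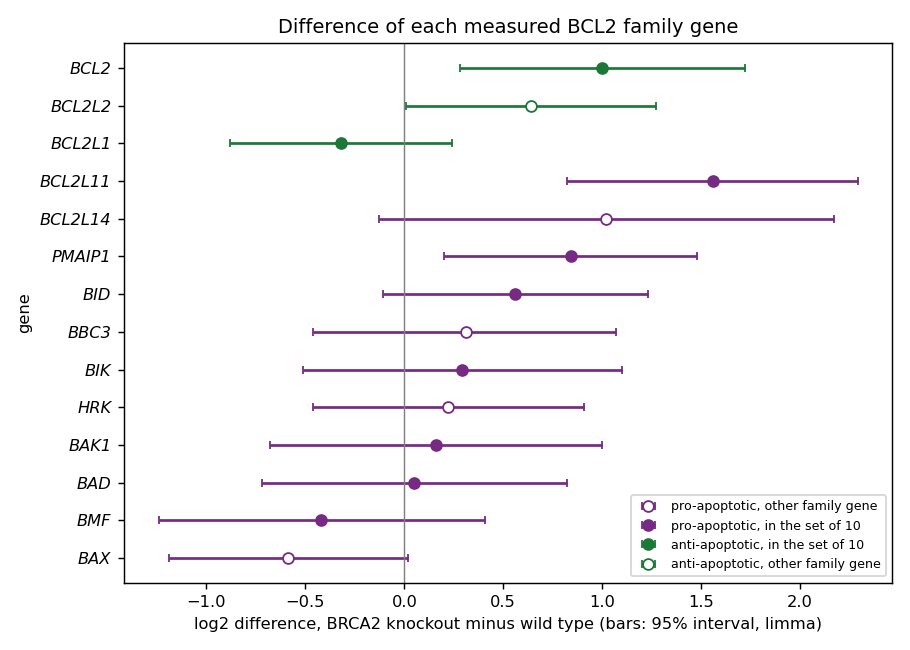
Log2 difference, knockout minus wild type, of the 14 measured BCL2 family genes with a survival or death role, with 95% intervals from limma; anti-apoptotic genes are green, pro-apoptotic genes purple, and open symbols mark family genes outside the set of 10. The intervals of BCL2, BCL2L2, BCL2L11 and PMAIP1 lie above 0 before adjustment, and the others include 0.

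Spread between arrays was uneven among the genes. In knockout arrays the SD was largest for BAK1 (0.62) and BIK (0.58), and knockout array 2 was the array far from the other knockout arrays in both, on the high side for BAK1 and on the low side for BIK. In wild-type arrays it was largest for BMF (0.47) and smallest for BCL2L1 (0.08). Knockout array 2 gave the lowest knockout value for BCL2, BID, BIK, PMAIP1 and BMF although its median over all probe sets was the highest of the 6, at 7.80.

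Set side by side, the class medians of the 9 genes lay close together, although the anti-apoptotic one is only the midpoint of BCL2 and BCL2L1. The anti-apoptotic genes had 1 of 2 members higher and a median difference of 0.34, and the pro-apoptotic genes had 6 of 7 higher and a median of 0.29, so that the anti-apoptotic median was 0.05 above the pro-apoptotic one. The mean over the 7 pro-apoptotic genes was 8.43, 8.27 and 8.41 on the knockout arrays, against 7.90, 7.95 and 7.96 on the wild-type arrays. The mean over the 2 anti-apoptotic genes was 9.50, 9.42 and 9.83 on the knockout arrays, against 9.20, 9.16 and 9.38 on the wild-type arrays. Both class means were higher on each knockout array than on any wild-type array, but neither stands for a rise in every gene. The anti-apoptotic mean hid the opposite signs of BCL2 and BCL2L1. In the pro-apoptotic class 3 of 7 genes (42.9%) were separated on their own, all of them higher. The share over all probe sets was 19.7%, or 12% as higher. BCL2L11, at 1.56, added most to the higher mean of the class. The sign of the contrast between class medians was not stable. It was -0.19 without knockout array 2, -0.15 without knockout array 3, -0.09 with array weights and all 6 arrays kept, and -0.07 without both arrays of highest median. Across all genes, 54.7% were higher and the median difference was 0.07, against 77.8% and 0.29 for the 9 genes.

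Positive differences were also common among cell type markers, which were not chosen for a role in cell death. Of 29 measured markers of colon epithelium and of other cell types, 24 were higher in the knockout and 0 were called. Over all probe sets 0.57% were called. Arrays of the genotypes were separated for 7 of the 29, all higher, where 12% of all probe sets were separated as higher. The colon epithelial markers had 9 of 10 higher (median 0.33), and their mean level was 8.12 to 8.56 on the knockout arrays, against 7.92 to 8.29 on the wild-type arrays. The largest difference among them was that of CDH1, the epithelial cadherin gene, at 11.44 ± 0.17 in knockout and 10.29 ± 0.05 in wild type (SD, n = 3 arrays each, difference 1.15). Markers of lymphocytes or myeloid cells had 4 of 5 higher (median 0.50), with mean levels of 5.77 to 6.58 on the knockout arrays and 5.67 to 6.36 on the wild-type arrays. Those of fibroblasts or endothelium had 6 of 7 higher (median 0.36), at 6.08 to 6.96 on the knockout arrays and 5.82 to 6.64 on the wild-type arrays. All 4 neural markers were higher (median 0.35), at 6.64 to 7.38 on the knockout arrays and 6.26 to 6.87 on the wild-type arrays, and 1 of 3 liver markers was higher (median -0.24), at 4.46 to 5.89 on the knockout arrays and 4.80 to 5.39 on the wild-type arrays. In these other lists the largest differences were those of LYZ (-0.82), VWF (1.30), GFAP (0.73) and APOB (0.58), and COL1A1 was separated between genotypes at 1.10. The part of these shifts in the class medians was not tested. In bulk RNA of a cell line, a change in every cell and a change in a part of the cells cannot be told apart.

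**Figure D3:**
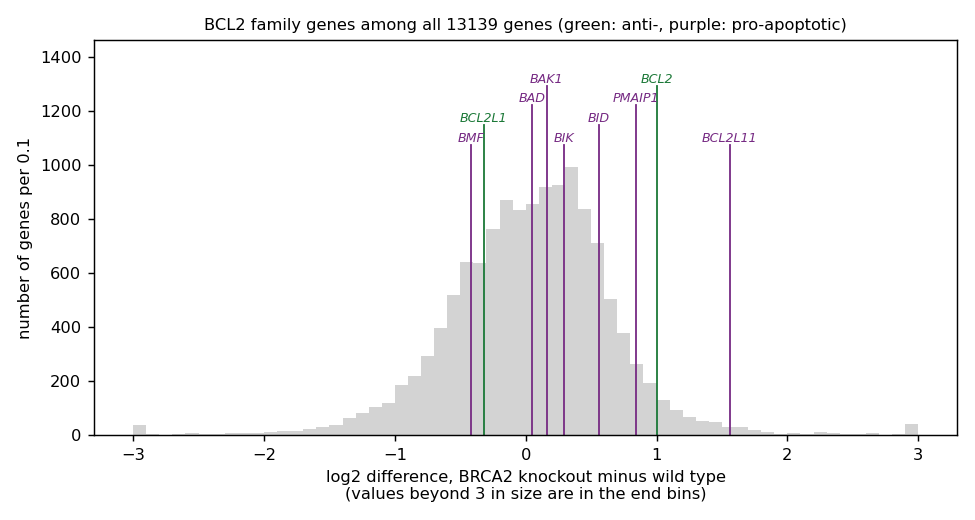
Histogram of the log2 difference, knockout minus wild type, for all 13139 genes with a probe set of their own, in bins of 0.1, with vertical lines at the anti-apoptotic (green) and pro-apoptotic (purple) genes. BCL2L11 at 1.56, BCL2 at 1.00 and PMAIP1 at 0.84 lie in the right flank, and the other 6 genes lie within the bulk.

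The promoters of the genes with the largest positive differences are shown because these 3 genes were the ones past an unadjusted p of 0.05, and promoters hold the sites through which transcription factors act. The RefSeq table of promoters (GRCh38.p14) held a window for 8 of the 10 genes, running from 250 bases before to 50 bases after a start site, and BCL2L11, PMAIP1 and BCL2 had 1 window each. They are given 5′ to 3′ on the strand of the gene, and capitals mark matches to the motifs named after them. The BCL2L11 window is chr2:111120664-111120963 (+ strand), the PMAIP1 window is chr18:59899746-59900045 (+ strand) and the BCL2 window is chr18:63319720-63320019 (- strand).
BCL2L11: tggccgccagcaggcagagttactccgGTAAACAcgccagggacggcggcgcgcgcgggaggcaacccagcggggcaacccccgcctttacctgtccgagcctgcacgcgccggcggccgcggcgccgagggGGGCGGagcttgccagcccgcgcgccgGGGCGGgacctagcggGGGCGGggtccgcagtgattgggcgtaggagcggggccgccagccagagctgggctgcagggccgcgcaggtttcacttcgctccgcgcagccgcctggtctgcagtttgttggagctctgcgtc
PMAIP1: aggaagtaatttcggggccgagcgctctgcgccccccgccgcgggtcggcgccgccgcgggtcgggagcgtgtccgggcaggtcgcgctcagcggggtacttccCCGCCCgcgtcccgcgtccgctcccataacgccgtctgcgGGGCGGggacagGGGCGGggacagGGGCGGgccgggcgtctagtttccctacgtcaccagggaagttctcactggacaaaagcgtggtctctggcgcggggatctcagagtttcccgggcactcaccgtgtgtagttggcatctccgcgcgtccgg
BCL2: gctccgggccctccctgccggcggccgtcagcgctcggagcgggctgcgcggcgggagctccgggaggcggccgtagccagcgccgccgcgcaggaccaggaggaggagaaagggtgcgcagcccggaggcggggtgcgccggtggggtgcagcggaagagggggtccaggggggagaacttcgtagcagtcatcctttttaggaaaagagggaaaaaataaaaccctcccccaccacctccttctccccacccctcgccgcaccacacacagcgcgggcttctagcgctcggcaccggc

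Both strands were searched for 8 motifs. They were the SP1 box GGGCGG, the FOXO motif GTAAACA, the interferon response core GAAANNGAA, the cyclic AMP response element TGACGTCA and the E-box CACGTG. The others were the E2F motif TTTCGCGC or TTTGGCGC, the TATA box TATAAA and the p53 half-site RRRCWWGYYY. In the half-site R is A or G, W is A or T and Y is C or T. A full p53 site, which joins half-sites, was not searched for. BCL2L11, a known target of FOXO transcription factors, held the FOXO motif 223 bases before the start, which 3.42% of all 35116 windows hold. It also held 3 SP1 boxes, at 118, 91 and 75 bases before the start. PMAIP1 held 4 SP1 boxes, at 146, 106, 94 and 82 bases before the start, and 45% of all windows hold at least 1. The BCL2 window held none of the 8 motifs as spelled here. The interferon response core (8.11% of all windows) and the p53 half-site (6.63%) were in none of the 3 windows. The other motifs that none of the 3 held were found in 1.85% (cyclic AMP response element), 7.26% (E-box), 1.15% (E2F) and 11.5% (TATA box) of all windows. Matches of different motifs did not overlap. The windows were rich in G and C, at 74.7% for BCL2L11, 71.3% for PMAIP1 and 70.7% for BCL2, where the median window had 58.7%. A match in letters is a description and says nothing of binding.

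The family outside these 10 genes was represented by 5 further genes, and 0 were called. BCL2L2, which encodes the guardian BCL-W, gave 7.43, 7.17 and 6.84 on the knockout arrays, against 6.62, 6.56 and 6.34 on the wild-type arrays. All knockout arrays were above all wild-type arrays, and the difference was 0.64 ± 0.27 (adjusted p = 0.406 in limma). BAX, the other main pore former, gave 8.15, 8.34 and 7.83 on the knockout arrays, against 8.63, 8.65 and 8.79 on the wild-type arrays. It lay below the wild type on every knockout array, with a difference of -0.59 ± 0.26 (95% interval -1.19 to 0.02, adjusted p = 0.423 in limma). BCL2L14, a family gene with little signal, had a difference of 1.02 ± 0.49 and overlapping arrays. BBC3, which encodes the p53-induced BH3-only protein PUMA, and HRK, another BH3-only gene, were named after their values were seen, at 0.31 ± 0.32 and 0.22 ± 0.29. With these genes added, 2 of 3 anti-apoptotic genes were higher (median 0.64) and 9 of 11 pro-apoptotic genes were higher (median 0.29). The class medians were thus further apart than without these genes, which was not tested. The anti-apoptotic median is here the value of BCL2L2 itself, and 3 of the 6 anti-apoptotic family genes named were measured. Knockout and wild-type arrays were separated for all 3 of the anti-apoptotic genes and for 4 of the 11 pro-apoptotic ones (36.4%). The share was 19.7% of all probe sets and 21.2% of all genes with 1 symbol.

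Genes that act around the family were described from lists chosen for their function. Of 54 measured genes in all related lists, those 5 included, 35 were higher and 19 lower with a median of 0.18, and 0 were called. At an unadjusted p under 0.05 in limma, 4 of the 54 were higher and 0 lower, where 6.92% of all probe sets were higher at that level, a share near that of the list. The arrays did not overlap for 10 of the 54, or 18.5%, close to the 19.7% of all probe sets.

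Regulators of the family had the most such genes, 6 of 18 or 33.3%, all of them higher (median of the list 0.28). Of all probe sets, 19.7% were separated and 12% were separated as higher. The list is singled out here for its count and was not tested as a set. PIM1, a kinase that phosphorylates BAD, gave 8.07, 8.74 and 8.31 on the knockout arrays, against 7.49, 6.87 and 7.34 on the wild-type arrays. The genotypes were separated by 0.58, and the difference was 1.14 ± 0.30 (adjusted p = 0.207 in limma). DYNLL2, the dynein light chain that tethers BMF, had a difference of 0.78 ± 0.30 (adjusted p = 0.367 in limma), opposite in sign to that of BMF. FOXO1, singled out after its values were seen because of the FOXO motif at BCL2L11, was at 0.54 ± 0.29. Its interval from limma ran from -0.14 to 1.23, with an adjusted p of 0.512. The remaining separated genes of the list were AKT1 at 0.45 ± 0.26, AKT2 at 0.41 ± 0.24 and E2F1 at 0.41 ± 0.26. Any link between these genes and BCL2L11 was not tested.

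Downstream of the mitochondrion, the apoptosome and executioner genes had 6 of 10 higher (median 0.17). APAF1, the scaffold of the apoptosome, gave 5.78, 7.28 and 5.88 on the knockout arrays, against 8.12, 6.81 and 7.17 on the wild-type arrays. The genotypes overlapped through knockout array 2, and the difference was -1.05 ± 0.52 (adjusted p = 0.481 in limma). CASP9, the caspase that APAF1 activates, was at 8.13 ± 0.35 in knockout and 7.44 ± 0.18 in wild type (SD, n = 3 arrays each), without overlap (difference 0.69 ± 0.29).

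Inhibitors of apoptosis had 4 of 5 members higher (median 0.07), with BIRC2 at 0.29 ± 0.36 and BIRC5 (survivin) at -0.34 ± 0.29. A further probe set of BIRC5, of lower signal, differed in sign. Mitochondrial outer membrane and fusion or fission genes were split evenly, 5 higher and 5 lower, with a median of 0.00, and the fusion genes MFN1 and OPA1 were at -0.67 ± 0.54 and -0.60 ± 0.57. Relatives of BCL2 with other or mixed roles had 4 of 6 higher (median 0.18), with BCL2L13 at 0.47 ± 0.26 and the mitophagy receptor gene BNIP3L at 0.37 ± 0.29.

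**Figure D4:**
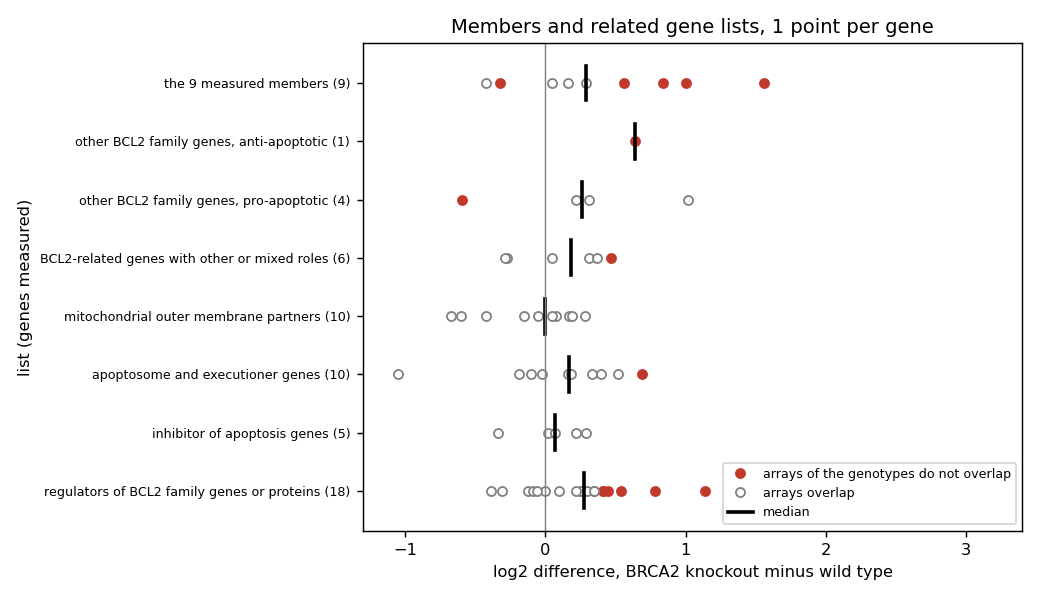
Log2 difference, knockout minus wild type, of each measured gene in the set of 9 and in 7 related lists, with a black bar at the median; filled red points are genes whose knockout and wild-type arrays do not overlap. The medians lie between 0.00 for mitochondrial partners and 0.64 for the single further anti-apoptotic gene, and the largest single difference is that of BCL2L11.

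The genes whose values over the 6 arrays were most like those of BCL2L11, the gene of smallest p among the 9, were CDH15, GRB2, HIP1R, BACE2 and IRF1. Their Pearson correlations with it were 0.994 to 0.996 over 6 arrays, which share the contrast of genotypes, and 290 of 13138 genes had a correlation above 0.95. Their differences lay between 0.72 (BACE2) and 1.25 (IRF1, which encodes an interferon regulatory factor), and each was smaller than that of BCL2L11.

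**Figure D5:**
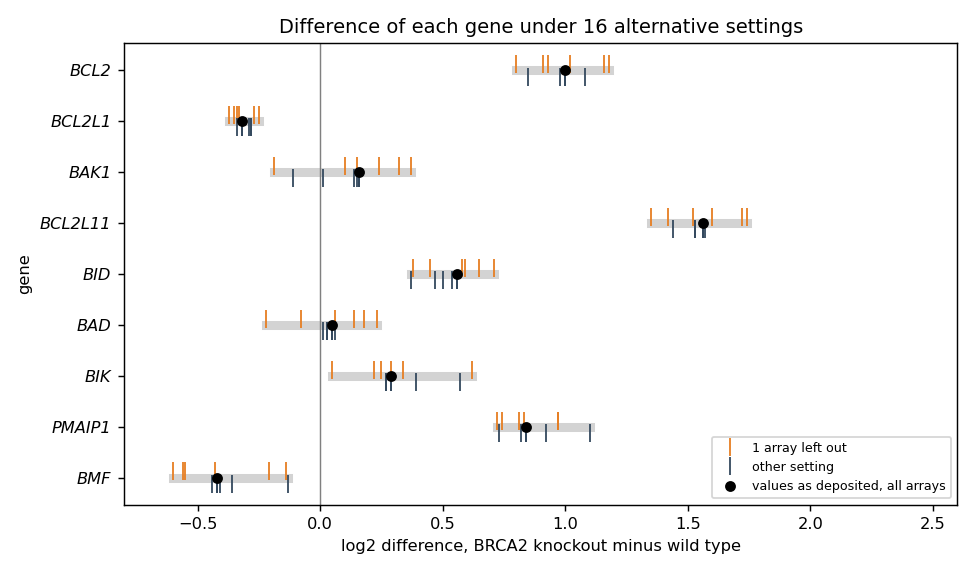
Log2 difference, knockout minus wild type, of each of the 9 genes as deposited (black), with 1 array left out (orange) and under other settings (dark blue), with a grey bar over the whole range. BCL2, BCL2L11, BID, BIK and PMAIP1 stay above 0 and BCL2L1 and BMF below 0 in the 16 alternatives, whereas BAK1 and BAD lie on both sides.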

How the data were processed

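RNA from the 6 samples was hybridised to Affymetrix whole-transcript arrays after removal of ribosomal RNA, per the labels' protocols. The deposited table holds log2 probe set values. RMA and R 2.11.1 are listed in the submitters' processing notes, with hg18 as the build. Which steps were run, and any filter, are not stated in those notes. The log2 scale of the values was read from their range. Array distributions of the deposited values differ, and whether quantile normalization was run at an earlier step is not stated. Array columns were mapped through their sample labels, and 0 columns of values were left over.

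Of 19458 probe sets, 13301 had 1 gene symbol, 2044 several and 4113 none in the platform annotation. Symbols were updated through gene identifiers (13280 found in RefSeq, GRCh38.p14). With several probe sets, the one of highest mean over the 6 arrays was used. The knockout was set against the wild type in R 4.3.3 with lmFit and eBayes of limma 3.58.1, genotype as the single factor, no filter, Benjamini-Hochberg adjustment over all probe sets. The code was tested on simulated data. The genes and lists were chosen with earlier results of these data known. Genes named were the members, in each related list those called or else the 2 of largest difference, separated genes differing by at least 1, and the 5 most like the member of smallest p. In the list of regulators the other separated genes were named as well. Marker lists are given by counts, with the marker of largest difference in each. Alternatives were median centring, quantile normalization, the dimmest 30% left out, a floor of 4, a variance trend, robust variance, no moderation, array weights, the replicate block, each array left out, both arrays of highest median left out and other thresholds.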

Additional observations from a re-analysis of the deposited data

How the results depend on the processing

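Of 144 values of the 9 genes under the 16 alternatives, 137 kept their direction and their side of the threshold, 4 changed sign and 3 passed the threshold. The changes of sign were in BAK1, at -0.11 without both arrays of highest median and -0.19 to 0.37 with 1 array left out, and in BAD, at -0.22 to 0.23 with 1 array left out. The 3 that passed were BCL2L11 with the dimmest 30% of probe sets left out, with a variance trend and with array weights, so that 1 of the 9 genes was called in each of these and 0 in the others. The pro-apoptotic median was 0.37 with array weights, 0.47 without both arrays of highest median and 0.25 to 0.62 with 1 array left out. The anti-apoptotic minus pro-apoptotic median was 0.05 as deposited, -0.09 with array weights, -0.07 without both arrays of highest median and -0.19 to 0.07 with 1 array left out, and the anti-apoptotic median 0.22 to 0.42. The median of the related genes was 0.04 to 0.24.

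The number of called probe sets was 111 as deposited, 175 with median centring, 174 with quantile normalization, 184 without the dimmest 30%, 169 with values under 4 set to 4, 396 with a variance trend, 778 with array weights, 250 at an adjusted p under 0.1, 24 to 63 with 1 array left out and 7 without both arrays of highest median. The cause of these shifts was not tested, and some of those fits had fewer arrays or probe sets. With the replicate number as a block it was 3, and BCL2L11 had an adjusted p of 0.593 in limma. Deviations of same-numbered arrays from the means of their genotypes correlated at -0.238, -0.427 and 0.0582. The closest match across genotypes was that of knockout array 2 with wild-type array 1, at 0.489. From 3 arrays a genotype these values cannot tell whether arrays of the same number were handled together. The alternative of using every probe set of a gene gave no further value, since each gene had 1. Robust variance and no moderation left the calls of the 9 genes at 0. With 3 arrays a genotype, the smallest absolute difference called as deposited was 1.56.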
